A study of Ambystoma mexicanum with 12 samples.

Results

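Forelimb blastemas that grew after amputation through the wrist (mid-carpal), in animals kept with 0.1 uM talarozole (TAL), were set against blastemas that grew after amputation through the upper humerus in animals kept with the solvent DMSO. The comparison takes 6 of the 12 RNA sequencing libraries with a described sample, 3 per group, chosen by their labels. It asks whether blastemas at the wrist (distal) keep a distal expression profile at the low dose of talarozole, as a second distal group beside distal blastemas under DMSO. The animals were white (d/d) axolotls (Ambystoma mexicanum) aged 3 months, about 5 cm long. For each library 3 blastemas were pooled, taken 14 days after amputation, and drug or solvent was in the housing water from day 4 for 7 days, so all groups had left treatment before they were sampled. The groups used are 0.1 uM TAL distal, DMSO distal and DMSO proximal. The 1 uM TAL distal pools are given beside them for genes and gene lists described here and on the principal components. They also entered the fit of all 12 libraries. The labels do not say whether blastemas of different pools came from different animals, so the p-values measure the spread between these pools, which may in part be technical.

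After a salamander loses a limb, proliferating cells gather at the stump as a blastema, which rebuilds only the parts that lie distal to the amputation plane. Retinoic acid is known to shift blastema cells towards proximal identity, and a distal blastema given enough of it regrows upper-arm structures. CYP26 enzymes break retinoic acid down, and talarozole inhibits them, so the drug raises retinoic acid that the limb itself makes. Proximal and distal blastemas differ in homeobox transcription factors and cell surface proteins that mark position.

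The table gives genes by identifier only. None of the 99081 identifiers matched the RefSeq gene list (0 matches), so no gene name, role, position or sequence is given, and marker genes of tissue or cell type could not be checked. Results are given for the 56805 identifiers that begin AMEX60DD but not AMEX60DDU. Of these 21537 passed the filter on low counts. Total estimated counts ranged from 8652567 to 10940100 in the 0.1 uM TAL distal pools and from 8409618 to 9877907 in the DMSO proximal pools, and 87.0 to 89.3% of them lay in AMEX60DD genes. CPM below are counts scaled to library size, after TMM scaling for differences in library composition. A gene is said to be called where edgeR's quasi-likelihood test gave a Benjamini-Hochberg adjusted p under 0.05, over all 41884 identifiers tested.

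The pools of a group did not stand together. Across AMEX60DD genes, the Spearman correlation of log2 CPM was 0.863 to 0.897 between 0.1 uM TAL distal pools, 0.849 to 0.860 between DMSO proximal pools and 0.836 to 0.886 between pools of the 2 groups. On the first principal component, 0.1 uM TAL distal replicates 1 and 2 lay at -43.6 and -59.8 and DMSO proximal replicates 2 and 3 at -96.5 and -94.0. The other 8 libraries lay between 20.1 and 56.2. Thus 2 of 3 pools of each compared group shared a side that no DMSO distal or 1 uM TAL distal pool took. The pools below 0 had 25552 to 26787 AMEX60DD identifiers with at least 1 count, against 26899 to 28111 in the other 8. What sets this side was not tested.

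**Figure D1:**
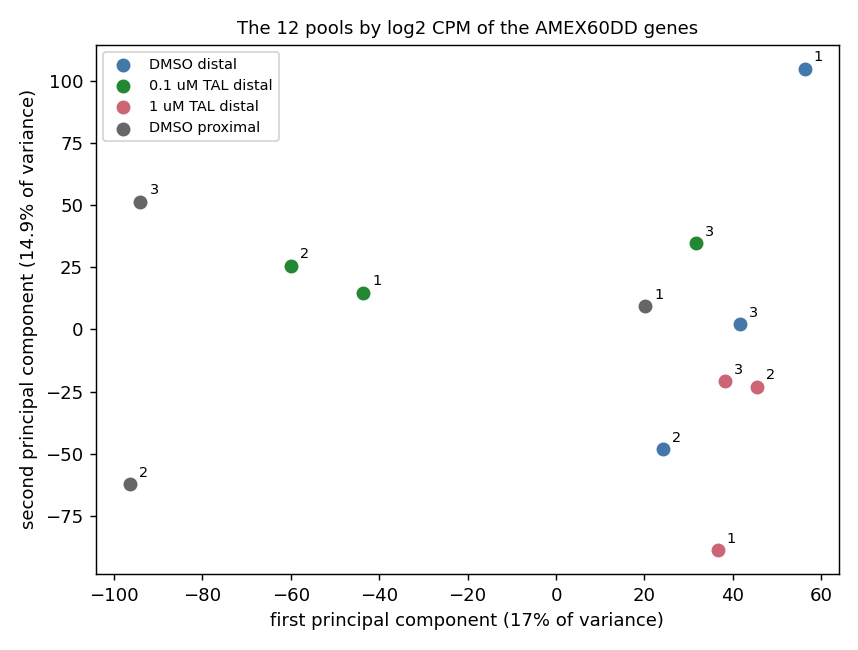
Scores of the 12 pools on the first and second principal components of log2 CPM over the tested AMEX60DD genes, with replicate numbers beside the points. Both 0.1 uM TAL distal replicates 1 and 2 and DMSO proximal replicates 2 and 3 have scores below 0 on the first component, from -96.5 to -43.6.

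Between 0.1 uM TAL distal and DMSO proximal blastemas 5 genes were called, 4 higher and 1 lower in the 0.1 uM TAL distal pools. The higher genes were 6.78- to 14.3-fold above the proximal level and the lower gene was 4.67-fold below it. The called genes were 0.0232% of the 21537 tested (higher 0.0186%, lower 0.00464%), and 719 genes (3.34%) had an unadjusted p under 0.05, of which 348 were higher and 371 lower. The quartiles of all log2 fold changes were -0.245 and 0.22, with a median of -0.04. The 95% interval lay within -1 to 1 for 40.9% of genes, and for the rest it reached past a 2-fold difference.

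AMEX60DD048317 was at 14.0, 6.89 and 7.35 CPM in the 0.1 uM TAL distal pools, against 0.569, 0.646 and 0.729 CPM in the DMSO proximal pools. All 3 distal pools lay far above the proximal ones, on 58 to 133 counts against 5 or 6. The log2 fold change was 3.84 (SE 0.413, edgeR adjusted p 0.0397), a 14.3-fold difference. It was called in 3 of 8 alternatives besides leaving out libraries. The adjusted p was 3.4e-09 by the DESeq2 Wald test and 0.856 by limma voom.

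AMEX60DD012191 was at 14.2, 10.3 and 7.35 CPM in the 0.1 uM TAL distal pools, against 1.33, 1.03 and 1.46 CPM in the DMSO proximal pools. The groups did not overlap, and the log2 fold change was 3.05 (SE 0.334, edgeR adjusted p 0.0397), an 8.28-fold difference. This gene too was called in 3 of 8 such alternatives, with an adjusted p of 5.07e-10 by the DESeq2 Wald test and 0.303 by limma voom. The other 2 higher genes had log2 fold changes of 2.76 and 2.82 (edgeR adjusted p 0.0397 and 0.0495). The first was at 49.3 to 92.6 CPM in the 0.1 uM TAL distal pools against 7.3 to 11.8 CPM in the DMSO proximal pools. The second was at 9.19 to 17.8 CPM against 1.42 to 2.31 CPM. In neither gene did the groups overlap.

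AMEX60DD019011, the called gene that was lower, was at 11.5, 17.0 and 16.9 CPM in the 0.1 uM TAL distal pools, against 70.4, 69.2 and 72.3 CPM in the DMSO proximal pools. The proximal pools were nearly level with each other and every distal pool was far below them. Its log2 fold change was -2.22 (SE 0.236, edgeR adjusted p 0.0397). It was called in 5 of 9 alternatives besides leaving out libraries. The adjusted p was 4.05e-13 by the DESeq2 Wald test and 0.0188 by limma voom.

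The gene of next smallest p among those lower without overlap of the pools was not called. AMEX60DD044347 had 0 counts in each 0.1 uM TAL distal pool, against 27, 12 and 37 counts in the DMSO proximal pools (edgeR adjusted p 0.0811). The DESeq2 Wald test called it (adjusted p 4.08e-05), 1 of 8 alternatives besides leaving out libraries. By group means it was at least 8.79-fold lower, set against a floor of 3 counts per library. DMSO distal pools had 24, 14 and 27 counts of it, so the zeros were not shared by the other distal group.

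Levels of 2 called genes are given by side of the first principal component. Their groups did not overlap in any pool, so a difference on each side follows and is no test. Among pools with scores below 0, AMEX60DD048317 was at 14.0 and 6.89 CPM in 0.1 uM TAL distal replicates 1 and 2, against 0.646 and 0.729 CPM in DMSO proximal replicates 2 and 3. Among pools with scores above 0 it was at 7.35 CPM in 0.1 uM TAL distal replicate 3, against 0.569 CPM in DMSO proximal replicate 1. AMEX60DD019011 was at 11.5 and 17.0 CPM against 69.2 and 72.3 CPM below 0, and at 16.9 CPM against 70.4 CPM above 0. With the side as a term in the model, an alternative chosen after seeing the data, 1 gene was called, higher at 0.1 uM TAL and among the 5, and 771 genes had an unadjusted p under 0.05.

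The 5 calls did not hold with any 1 library left out. The filter on low counts then passed 23082 to 23469 AMEX60DD genes, against 21537 with all libraries. What this did to the calls was not tested. Leaving out any 1 of the 9 libraries of 0.1 uM TAL distal, DMSO distal and DMSO proximal blastemas gave 0 called genes (edgeR), with 617 to 1146 at an unadjusted p under 0.05. The log2 fold change of AMEX60DD048317 then stayed between 3.45 and 4.02, that of AMEX60DD012191 between 2.80 and 3.26, and that of AMEX60DD019011 between -2.32 and -2.05. The estimates moved little and the adjusted p-values were 0.0784 to 0.268.

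The common spread was larger with identifiers beginning AMEX60DDU in the fit. The common biological coefficient of variation, the spread between pools beyond counting error, was 1.01 with them and 0.548 without them. Its median was 0.377 for AMEX60DD and 1.31 for AMEX60DDU genes. Same-group pools correlated at a median of 0.868 over AMEX60DD and 0.451 over AMEX60DDU genes. With AMEX60DDU identifiers removed before the fit, 12 AMEX60DD genes were called between 0.1 uM TAL distal and DMSO proximal blastemas, 10 higher and 2 lower, including all 5. The adjustment was also over 21504 instead of 41884 identifiers, and what the spread and the adjustment each added was not tested. Leaving out 1 library then gave 0 to 11, with 0 without 0.1 uM TAL distal replicate 2 or any 1 DMSO proximal replicate (1043 to 1967 genes at an unadjusted p under 0.05).

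Precision depended on level. Over genes with a mean of 1 to 10 CPM in the 6 pools the median half-width of the 95% interval of the log2 fold change was 1.02, over 10 to 100 CPM it was 0.496, and under 1 CPM it was 3.51. Calls came from the middle of the range, with 3 of 12332 genes at 1 to 10 CPM and 2 of 5317 at 10 to 100 CPM.

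**Figure D2:**
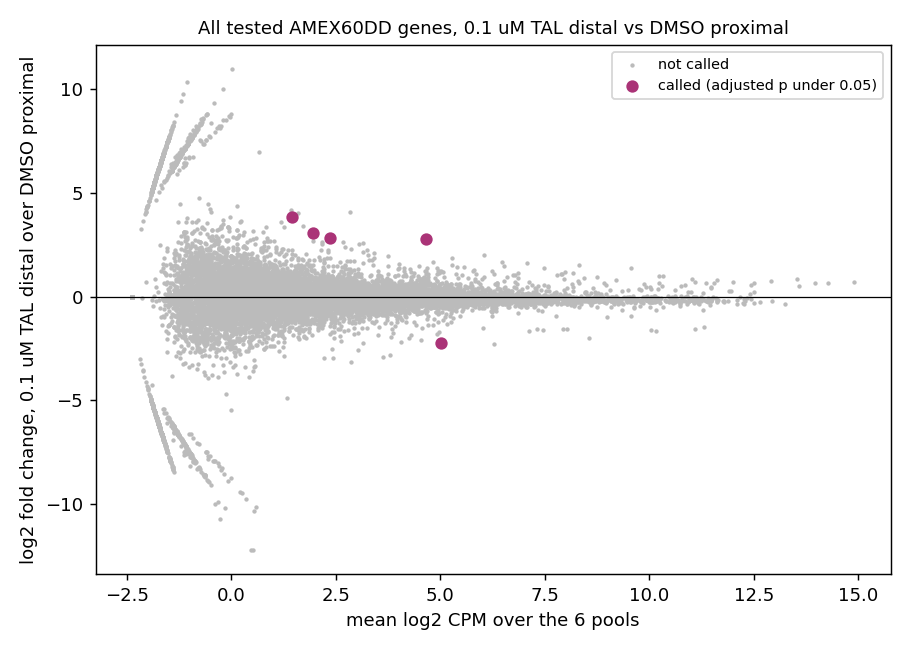
Log2 fold change of 0.1 uM TAL distal over DMSO proximal blastemas against mean log2 CPM over the 6 pools, 1 point per tested AMEX60DD gene. The 5 called genes are 4 above and 1 below 0.

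Pool ranges were also counted without a model. Of 19602 AMEX60DD genes with a mean of at least 1 CPM in either group, 688 (3.51%) had all 3 0.1 uM TAL distal pools above all 3 DMSO proximal pools and 1016 (5.18%) had them all below, together 8.69%. Among genes with a mean of at least 5 CPM the share was 8.99%. For DMSO distal against DMSO proximal pools the share was 15.7% of 19873 genes, and for 0.1 uM TAL distal against DMSO distal pools it was 10.3% of 19820. For a single gene, full separation of 3 pools from 3 has an exact two-sided permutation p of 0.1, the smallest this design allows, so separation alone passes no test. Whether the shares differ between comparisons beyond the spread between pools was not tested.

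DMSO distal blastemas are the other distal group, and they were compared with the same DMSO proximal pools. There 4 genes were called, 0.0186% of those tested, all higher in DMSO distal blastemas, and 1817 genes (8.44%) had an unadjusted p under 0.05. AMEX60DD048317 was at 15.1, 10.7 and 8.38 CPM in the DMSO distal pools, 4.11 above DMSO proximal on the log2 scale (SE 0.417; adjusted p by edgeR 0.0343). AMEX60DD012191 was at 11.9, 18.5 and 10.5 CPM there, 3.41 above DMSO proximal on the log2 scale (SE 0.338; adjusted p by edgeR 0.0343). For both genes the ranges of the 2 distal groups overlapped. Leaving out 1 library gave 0 to 8 calls here: 3 without 0.1 uM TAL distal replicate 1, 8 without its replicate 3, 1 without DMSO proximal replicate 3 and 0 without any of the other 6 libraries (1395 to 2945 genes at an unadjusted p under 0.05).

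No gene was called lower in DMSO distal than in DMSO proximal blastemas (0 by edgeR, with 968 lower at an unadjusted p under 0.05, 164 by the DESeq2 Wald test and 2 by limma voom). Other edgeR settings did call lower genes. There was 1 with DESeq2 size factors, 6 with at least 10 counts in every library and 11 with AMEX60DDU identifiers removed. Without 0.1 uM TAL distal replicate 3 there were 3, and without DMSO proximal replicate 3 there was 1. There were 0 without a filter, with robust estimation, with the replicate block and with the compared libraries alone. The genes of smallest p among those lower without overlap of the pools were AMEX60DD018915 (edgeR adjusted p 0.066), described below, and AMEX60DD025503. In this comparison AMEX60DD018915 was called in 5 of 9 alternatives besides leaving out libraries. AMEX60DD025503 had 0 counts in each DMSO distal pool, against 18, 17 and 11 counts in the DMSO proximal pools (edgeR adjusted p 0.0752). It was called in 2 of 8 alternatives besides leaving out libraries, with an adjusted p of 8.28e-05 by the DESeq2 Wald test. By group means it was at least 5.79-fold lower against a floor of 3 counts per library. It had 30, 12 and 22 counts in the 0.1 uM TAL distal pools, which overlapped the proximal pools.

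With both distal groups averaged and set against DMSO proximal blastemas, 11 genes were called, 8 higher (0.0371%) and 3 lower (0.0139%) in distal blastemas (together 0.0511% of those tested, with 1310 genes or 6.08% at an unadjusted p under 0.05). All 5 genes called at 0.1 uM TAL and all 4 called in DMSO distal were among them, and 6 were called in neither single comparison. In all 11 the 6 distal pools lay on 1 side of the 3 proximal pools (3.62% of 19795 genes with a mean of at least 1 CPM), which follows from the choice, since these 9 pools called the genes. All of these comparisons share the DMSO proximal pools, so they are not separate evidence.

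Among the 8 higher genes, log2 fold changes over DMSO proximal ran from 1.97 to 3.84 in 0.1 uM TAL distal and from 1.91 to 4.11 in DMSO distal blastemas. Mean levels ran from 9.42 to 67.3 CPM in 0.1 uM TAL distal, from 11.4 to 59.8 CPM in DMSO distal and from 0.648 to 9.94 CPM in DMSO proximal blastemas. AMEX60DD021956, with the largest change after AMEX60DD048317, was at 12.7, 8.19 and 9.29 CPM in the 0.1 uM TAL distal pools, against 1.42, 0.775 and 0.608 CPM in the DMSO proximal pools. DMSO distal pools had 16.2, 11.3 and 10.4 CPM of it. For both distal groups over DMSO proximal the log2 fold change was 3.56 (SE 0.431, edgeR adjusted p 0.0428).

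AMEX60DD001828 was the lower gene of largest change. It was at 5.16, 5.34 and 2.14 CPM in the 0.1 uM TAL distal pools, against 18.6, 14.3 and 26.1 CPM in the DMSO proximal pools. DMSO distal pools had 2.0, 3.06 and 3.10 CPM. Over both distal groups its log2 fold change against DMSO proximal was -2.53 (SE 0.298, edgeR adjusted p 0.0408), while at 0.1 uM TAL alone it was -2.22 with an edgeR adjusted p of 0.223.

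AMEX60DD018915 was at 12.2, 9.97 and 6.95 CPM in the 0.1 uM TAL distal pools, against 34.2, 33.4 and 48.0 CPM in the DMSO proximal pools. DMSO distal pools had 5.90, 6.30 and 10.2 CPM, which overlapped the 0.1 uM TAL distal pools. The log2 fold change of both distal groups over DMSO proximal was -2.18 (SE 0.229, edgeR adjusted p 0.022). In bulk tissue, fewer cells of a type and less RNA per cell cannot be told apart for any of these genes.

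The calls in both distal groups also changed when single libraries were left out. Leaving out 1 library gave 0 to 8 called genes, and 0 without 0.1 uM TAL distal replicate 2, without DMSO distal replicate 2 or without DMSO proximal replicate 1, 2 or 3. At 0 calls, 916 to 2335 genes had an unadjusted p under 0.05. It gave 8 genes without 0.1 uM TAL distal replicate 1, 7 without 0.1 uM TAL distal replicate 3 and 5 without DMSO distal replicate 1 or 3. With AMEX60DDU identifiers removed before the fit, 34 genes were called, 18 higher and 16 lower, including all 11, and leaving out 1 library then gave 4 to 59.

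**Figure D3:**
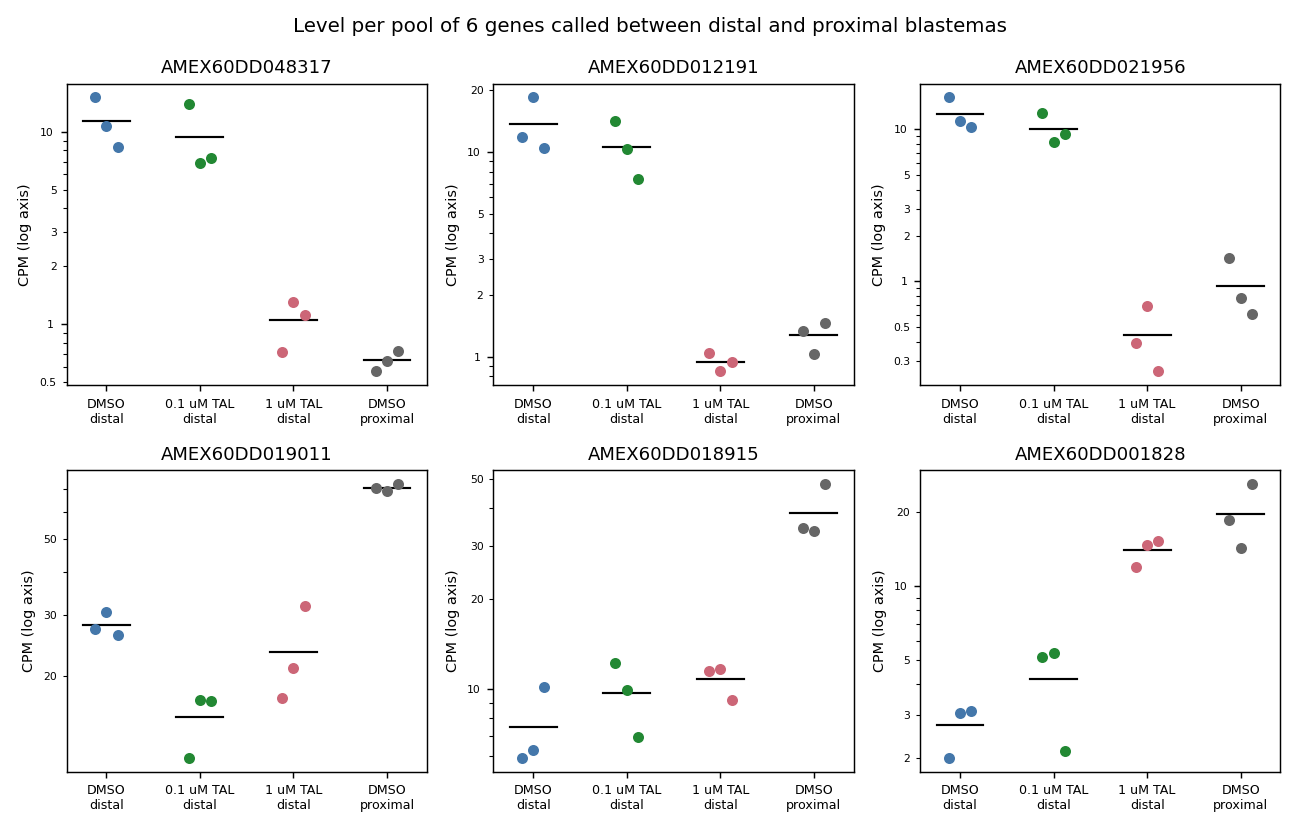
CPM on a log axis in each of the 12 pools for 6 genes called between distal and proximal blastemas, with the group mean as a bar. The 0.1 uM TAL distal and DMSO distal pools lie on the same side of the DMSO proximal pools in every panel, and the 1 uM TAL distal pools lie with the proximal pools in 4 panels and with the distal ones for AMEX60DD019011 and AMEX60DD018915.

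The difference between the 2 distal groups was tested as 0.1 uM TAL distal against DMSO distal blastemas. No gene was called (0 by edgeR, lowest adjusted p 0.304, with 732 genes or 3.40% at an unadjusted p under 0.05). The DESeq2 Wald test called 48 genes and limma voom with quality weights 5. The 95% interval of the log2 difference lay within -1 to 1 for 8404 genes, 39.0% of those tested, and reached past a 2-fold difference for the rest.

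For 10 of the 11 genes called between both distal groups and DMSO proximal, the interval of 0.1 uM TAL distal against DMSO distal included 0. Over all tested genes 3.40% had an edgeR unadjusted p under 0.05 here. An interval that includes 0 is thus common and not particular to these genes. The intervals of the 8 higher genes spanned at most -1.23 to 0.755, and 5 of the 8 lay within -1 to 1. The share was 39.0% over all tested genes, which include genes of low level with wide intervals. It was 73.2% in a separate fit of genes with at least 10 counts in every library. AMEX60DD048317, AMEX60DD012191 and AMEX60DD021956 did not pass that filter, and of the 8 genes they are those whose intervals reached past -1. The 8 genes were also chosen on the mean of both distal groups, so the shares are given with no test. Differences of the 8 genes ran from -0.36 to 0.17 with a median of -0.09, against a median of -0.02 over all tested genes. For these 8 genes the 0.1 uM TAL distal and DMSO distal pools overlapped in each. Of 19820 genes with a mean of at least 1 CPM, 10.3% had no overlap.

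The exception was AMEX60DD019011. It was at 11.5, 17.0 and 16.9 CPM in the 0.1 uM TAL distal pools, against 27.4, 30.6 and 26.3 CPM in the DMSO distal pools, with no overlap. The log2 difference was -0.89 (95% interval -1.41 to -0.384), with an edgeR adjusted p of 1 over all identifiers. Its level in 0.1 uM TAL distal blastemas was thus farther from the DMSO proximal level of 70.6 CPM than that of DMSO distal blastemas, at means of 15.1 and 28.1 CPM.

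**Figure D4:**
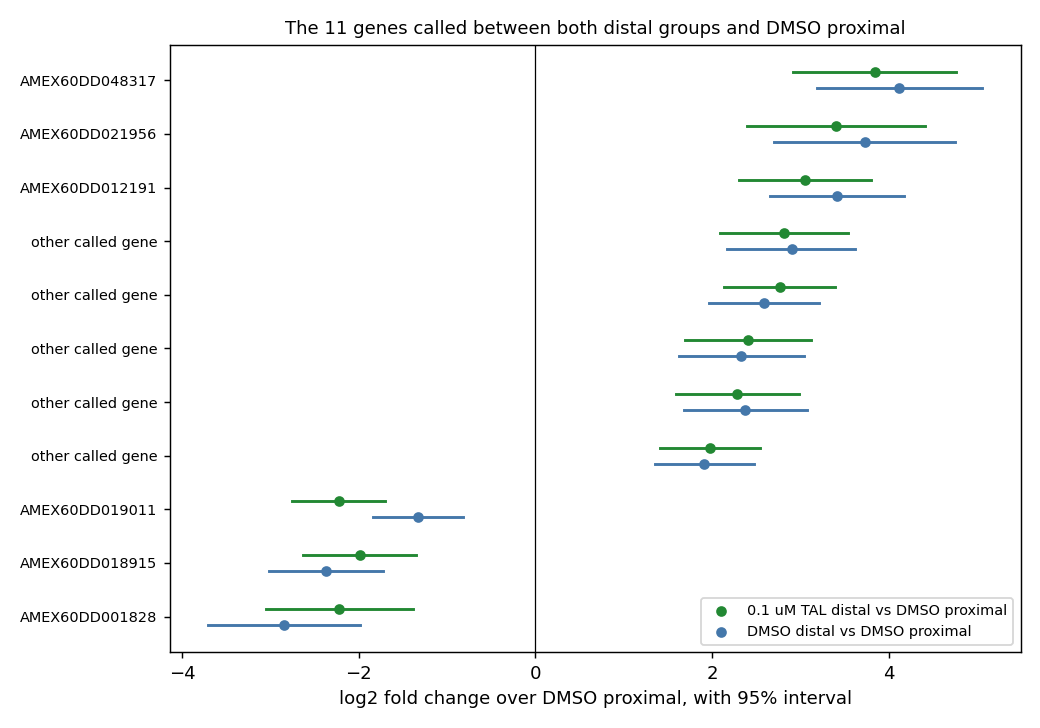
Log2 fold change over DMSO proximal with its 95% interval for the 11 genes called between both distal groups and DMSO proximal, for 0.1 uM TAL distal (upper line of each pair) and DMSO distal (lower line). The pairs overlap in every row, and the pair farthest apart is AMEX60DD019011, with a log2 difference of -0.89.

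Among the uncalled genes of smallest p without overlap of the pools between the distal groups, some had levels out of line with the difference between distal and proximal blastemas. AMEX60DD009927 was at 21.8, 22.0 and 24.7 CPM in the 0.1 uM TAL distal pools, against 1.18, 5.10 and 3.01 CPM in the DMSO distal pools (log2 difference 2.87, SE 0.419, edgeR adjusted p 0.313). The DESeq2 Wald test (adjusted p 5.89e-12) and limma voom (adjusted p 0.0171) called it, 2 of 9 alternatives besides leaving out libraries. DMSO proximal pools had 14.0, 10.6 and 8.38 CPM of it, so the 0.1 uM TAL distal pools lay above the proximal ones while the DMSO distal pools lay below them. The 1 uM TAL distal pools, at 54.9, 50.8 and 51.4 CPM, were above all of these. AMEX60DD044318 had 0 counts in each 0.1 uM TAL distal pool, against 107, 46 and 42 counts in the DMSO distal pools (edgeR adjusted p 1). The DESeq2 Wald test called it (adjusted p 7.15e-05), 1 of 8 alternatives besides leaving out libraries. By group means it was at least 21.2-fold lower against a floor of 3 counts per library. It also had 0 counts in each 1 uM TAL distal pool, and 43, 124 and 39 counts in the DMSO proximal pools.

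The 1 uM TAL distal pools entered the choice of the 11 genes only through the shared filter, scaling and estimate of spread. All 8 genes that were higher in both distal groups had every 1 uM TAL distal pool below all 6 distal pools of 0.1 uM TAL and DMSO. Of 19946 genes with a mean of at least 1 CPM, 276 (1.38%) did so. The same 6 pools had helped to choose the 8 genes for being high there, so the order is given with no test. In 7 of the 8 the 1 uM TAL distal pools overlapped the DMSO proximal pools, and in the remaining gene they lay above them. AMEX60DD048317 was at 0.718, 1.31 and 1.12 CPM in the 1 uM TAL distal pools.

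The 3 genes that were lower in both distal groups did not share this order. AMEX60DD001828 was at 12, 14.8 and 15.3 CPM in the 1 uM TAL distal pools, above all 6 distal pools of 0.1 uM TAL and DMSO (as for 6.55% of the 19946 genes) and overlapping the DMSO proximal pools. AMEX60DD019011 was at 17.2, 21.1 and 31.8 CPM there and AMEX60DD018915 at 11.5, 11.7 and 9.18 CPM, below every DMSO proximal pool. For these 2 genes the 1 uM TAL distal pools overlapped the other distal pools.

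A wider list was drawn from the 6 compared libraries alone. For each direction the 100 genes with the smallest p were taken. They (largest unadjusted p 0.0222 among the higher and 0.0166 among the lower, lowest adjusted p 0.339) are not called genes, and the compared pools lie at the ends by choice. The DMSO distal and 1 uM TAL distal pools played no part in that choice.

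For the 100 genes higher in 0.1 uM TAL distal than in DMSO proximal blastemas, the median log2 CPM was 3.82, 3.68 and 3.46 in the 0.1 uM TAL distal pools, against 1.83, 1.95 and 1.99 in the DMSO proximal pools. In the DMSO distal pools it was 3.49, 3.61 and 3.46, within the 0.1 uM TAL distal range. In the 1 uM TAL distal pools it was 2.48, 2.27 and 2.38, nearer the proximal pools. The median over all tested genes ranged from 1.99 to 2.21 over the 12 libraries.

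For the 100 genes lower in 0.1 uM TAL distal blastemas, the median log2 CPM was 2.10, 2.32 and 1.77 in the 0.1 uM TAL distal pools, against 3.91, 3.89 and 3.75 in the DMSO proximal pools. The DMSO distal pools were at 1.78, 2.80 and 2.02, of which replicate 2 lay above every 0.1 uM TAL distal pool. The 1 uM TAL distal pools were at 2.36, 2.66 and 2.86, nearer the 0.1 uM TAL distal pools than the proximal ones, unlike on the higher list, and overlapped the DMSO distal pools.

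On a scale of 0 at the DMSO proximal mean and 1 at the 0.1 uM TAL distal mean, the DMSO distal pools averaged 0.924 ± 0.045 and the 1 uM TAL distal pools 0.262 ± 0.0615 on the higher list (SD, n = 3 each). On the lower list the DMSO distal pools averaged 0.924 ± 0.296 and the 1 uM TAL distal pools 0.686 ± 0.143 (SD, n = 3 each). The genes were chosen with the DMSO proximal pools at one end, which by itself moves any other group off 0, so the positions are a description with no test and no value for an absence of change. With 300 genes the DMSO distal pools averaged 0.835 on the higher and 0.81 on the lower list. With 30 genes they averaged 1.04 on the higher list and 0.268 on the lower list. In the lower list of 30 genes 16 had 0 counts in every 0.1 uM TAL distal pool and the end of the scale is the log2 CPM of a count of 0, set by the prior count, so nothing is read from that position.

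**Figure D5:**
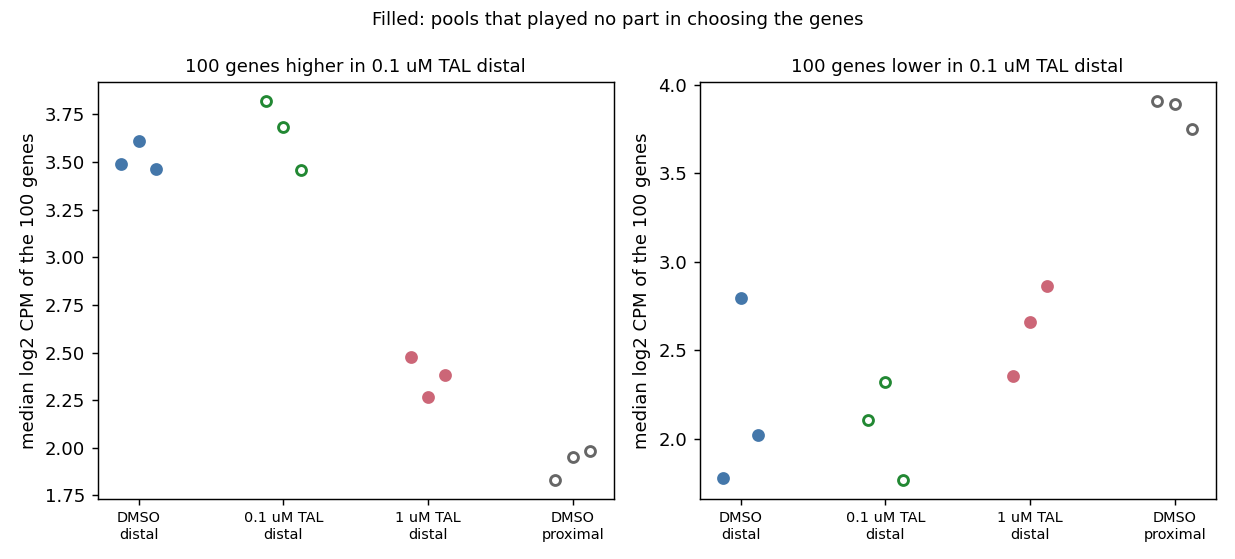
Median log2 CPM per pool of the 100 genes of smallest p higher (left) and lower (right) in 0.1 uM TAL distal than in DMSO proximal blastemas. Open points are the pools that chose the genes, and filled points are pools that did not. On the left the DMSO distal pools sit between 3.46 and 3.61, near the 0.1 uM TAL distal pools.

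Lists drawn the other way, from DMSO distal against DMSO proximal pools, were placed on a scale of 0 at the DMSO proximal mean and 1 at the DMSO distal mean, with the same limit. On the 100 genes higher in DMSO distal blastemas the 0.1 uM TAL distal pools lay at 0.669, 0.640 and 0.822, a mean of 0.71, and the 1 uM TAL distal pools averaged 0.554. On the 100 genes lower there the 0.1 uM TAL distal pools lay at 0.315, 0.365 and 0.910, a mean of 0.53, and the 1 uM TAL distal pools averaged 0.467. On the lower list the 1 uM TAL distal mean was thus inside the range of the 0.1 uM TAL distal pools.

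The higher list depended on its length. With 30 genes the 0.1 uM TAL distal pools averaged 0.871 and the 1 uM TAL distal pools 0.276, and with 300 genes they averaged 0.58 and 0.539. On the lower list the 0.1 uM TAL distal pools averaged 0.444 with 30 genes and 0.492 with 300, and the 1 uM TAL distal pools 0.559 and 0.451. In the lower list of 100 genes 0.1 uM TAL distal replicates 1 and 2 were nearer the proximal end and replicate 3 nearer the distal end, and the first principal component parted the same pools. Whether the same genes underlie both was not tested.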

How the data were processed

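RNA of 12 blastema pools in 4 groups was sequenced. The authors deposited 1 table of estimated counts per gene identifier; Trimmomatic 0.38 and Salmon 0.13.1 are named in the submitters' processing notes. The genome build is not given in the sources used here. Between 0.874 and 1.16% of values above 0 were whole (within 0.005), and whether they had been rescaled is not stated. Of 15 columns, 3 were not used. Counts were rounded, filtered (filterByExpr), TMM-scaled and fitted with edgeR 4.0.16 (R 4.3.3; quasi-likelihood test, all 12 libraries in 1 fit), with Benjamini-Hochberg adjustment over 41884 identifiers. DESeq2 1.42.0 and limma 3.58.1 were alternatives. The script was tested on simulated data. Log2 CPM used a prior count of 2. Named genes were, per comparison, at most 2 higher and 2 lower: called, pools not overlapping, at least 1 CPM, largest fold change, with places left filled by smallest p, plus the 2 most abundant identifiers. Groups, comparisons and lists were chosen with earlier results of these data known. Lists of named limb and retinoic acid genes could not be applied. Replicates of a group differed by over 9.47 chi-square per degree of freedom, so none was a repeat deposit. Same-numbered 0.1 uM TAL distal and DMSO proximal pools deviated with a mean correlation of -0.0394, so replicate numbers were not taken as pairs.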

Additional observations from a re-analysis of the deposited data

How the results depend on the processing

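All 277 fold changes of the named genes under the alternatives run kept their direction (0 reversed). These genes were chosen for pools that did not overlap, so the kept direction follows largely from the choice and is no test. The counts of called genes moved. Counts are given for 0.1 uM TAL distal, DMSO distal and both distal groups against DMSO proximal, then for 0.1 uM TAL distal against DMSO distal, where the reported ones are 5, 4, 11 and 0. With DESeq2 size factors they were 0, 5, 14 and 0, without a filter 0, 3, 7 and 0, and under a minimum of 10 counts per library 9, 14, 21 and 0. With AMEX60DDU identifiers removed they were 12, 25, 34 and 0, and with the compared libraries alone 0, 0, 2 and 0. DESeq2's Wald test gave 142, 348, 249 and 48, limma voom with quality weights 5, 2, 19 and 5, and edgeR with robust estimation 5, 4, 11 and 0. Of the 5 voom calls at 0.1 uM TAL against DMSO proximal, 2 were among the edgeR calls. Leaving out 1 library gave 0 to 0, 0 to 8, 0 to 8 and 0 to 0. The replicate block gave 0, 0, 0 and 0 (523, 1354, 942 and 517 at an unadjusted p under 0.05). Whether pools of the same number share more than the number is not stated in the labels.

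Added after seeing the data, the side of the first principal component as a term gave 1 for 0.1 uM TAL distal and 2 for both distal groups. With AMEX60DDU identifiers removed and, in turn, replicates 1, 2 and 3 of 0.1 uM TAL distal, then of DMSO distal, then of DMSO proximal left out, the counts were 2, 0, 11, 6, 1, 8, 0, 0 and 0 for 0.1 uM TAL distal and 14, 30, 31, 14, 20, 16, 59, 4 and 11 for both distal groups. The share of intervals of 0.1 uM TAL distal against DMSO distal within -1 to 1 was 73.2% with at least 10 counts in every library. That filter passed 12874 genes, against 39.0% of 21537 genes as reported. The DMSO distal position was 1.04 and 0.268 on higher and lower lists of 30 genes and 0.835 and 0.81 on those of 300, against 0.924 on both lists of 100. Non-overlapping genes numbered 904 of 10054 (8.99%) at a mean of at least 5 CPM, against 1704 of 19602 (8.69%) at 1 CPM. Here the count fell with the number of genes while the share stayed close. The cause of the other moves was not tested. Between 0.1 uM TAL distal and DMSO proximal blastemas, the median half-width for genes under 1 CPM was 3.51, too wide to bound a 2-fold difference.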

Other observations

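The 2 most abundant identifiers varied widely within groups. AMEX60DD016881 was at 29000, 40300 and 60000 CPM in the 0.1 uM TAL distal pools, against 30800, 10300 and 37600 CPM in the DMSO proximal pools. AMEX60DD019632 was at 19500, 27600 and 34800 CPM in the 0.1 uM TAL distal pools, against 17300, 6800 and 27200 CPM in the DMSO proximal pools. Both groups overlapped for each (edgeR adjusted p 1 for both).

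Some genes were absent from the counts of 1 group, a small number beside the 21537 AMEX60DD genes that passed the filter on low counts. At 0 counts in all 3 0.1 uM TAL distal pools and at 10 or more in each DMSO proximal pool were 23 genes, of which the DMSO distal pools had 0 throughout for 5, 10 or more in each for 3 and mixed counts for 15. The opposite pattern held for 18 genes, of which the DMSO distal pools had 0 throughout for 4, 10 or more in each for 3 and mixed counts for 11. Such genes were not particular to the low dose. Between DMSO distal and DMSO proximal pools, 21 genes were at 0 counts in the distal and 36 in the proximal pools by the same rule. Whether these numbers differ between comparisons was not tested.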
